A study of Ovis aries with 40 samples.

Results

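Proximal and distal lung of the same sheep were compared at term. The comparison took the libraries labelled as proximal or distal lung at 147 days, which were 8 of the 40 libraries in the series. They came from 4 animals, 2 WT and 2 CFTR-/- (CF), and each animal gave 1 library of each region, by an animal label that both libraries carried. All animals were American Romney sheep. The WT animals were bred and born naturally. The CF animals were clones made by somatic cell nuclear transfer from 1 male fetal fibroblast line whose CFTR gene had been targeted in exon 2, so the genotype and the way the animal was conceived cannot be told apart, and the 2 CF animals shared 1 donor genome. The study took term as 147 to 150 days. Its text does not give the sex of the WT animals. It names the time from birth to euthanasia as a factor to consider in term lungs, without giving the times. Sex and time after birth may therefore also differ between the genotypes, which was not tested. The labels call the tissue epithelial, but it was unsorted lung tissue, snap frozen, and the libraries (oligo-dT primed, 100 bp paired ends) held mesenchymal, vascular and blood cell RNA too. COL1A1, a collagen gene of fibroblasts, stood at 436 to 1311 CPM (counts scaled to the total of the library after TMM normalization, which adjusts the total for the composition of each library).

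The airway tree runs from cartilage-walled bronchi lined by basal, ciliated, secretory and gland cells to alveoli lined by flat type 1 cells, across which gas passes, and type 2 cells, which make surfactant. In the embryo, SOX2 marks the epithelium that forms conducting airways and SOX9 the budding tips that form alveoli. The mesenchyme around the epithelium carries its own positional genes, among them the HOX genes, whose order along each chromosome cluster follows the order of their expression along the body axis.

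The 8 libraries held 115937437 to 126749480 counts over 24478 genes, of which 18374 had enough counts to test. Mitochondrial genes took between 1.81% and 2.41% of counts, and the 10 genes with most counts took between 5.56% and 7.90%. Of the counts from 1 to 20, 69.2% to 78.9% were even numbers, so most values count both mates of a read pair and exceed the number of fragments. CFTR, the targeted gene (chr4:50644000-50864925, minus strand, Oar_v4.0), had 8.06 and 12.7 CPM in proximal and 9.002 and 11.02 CPM in distal lung of WT animals 1 and 2, and 3.40 and 4.49 CPM in proximal and 3.17 and 4.26 CPM in distal lung of CF animals 1 and 2. Its CF levels all lay below its WT levels, and it did not separate the regions (log2 fold change 0.05 ± 0.14 (SE, n = 4 animals), edgeR adjusted p = 0.900). An error after ± is the SE of the fitted log2 fold change, proximal minus distal, over the 4 animals unless another is named. For a value of WT or CF alone it is the SE for the 2 animals of that genotype. For a difference between genotypes it is the SE of that difference. A negative region value is higher in distal lung.

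The region was the smallest source of difference between these libraries. The root mean square difference in log2 CPM over 13918 genes was 0.292 to 0.482 between the 2 regions of 1 animal. It was 0.516 to 0.798 between 2 animals of the same genotype in the same region, and 0.892 to 1.15 between genotypes in the same region. Both regions of an animal therefore lay closer to each other than either did to any library of the other animal of its genotype in the same region. The difference between the 2 WT animals correlated across genes at r = 0.666 between proximal and distal lung, and that between the 2 CF animals at r = 0.859. The difference between regions was less alike from animal to animal, with correlations across genes from -0.0314 to 0.395 over the 6 pairs of animals. Genes are not independent replicates, and all of these are descriptions of the libraries.

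Part of the difference between regions followed the length of the gene. In WT animal 2 the median difference, proximal minus distal in log2 CPM, was -0.43 for genes with at most 1000 exonic bases and 0.31 for genes over 5000 bases. The same medians were -0.17 and 0.10 in CF animal 1, and -0.20 and 0.09 in CF animal 2. In WT animal 1 they were 0.05 and 0.02, so this animal had no such slope. What gave the slope was not tested. Values with the slope removed come from a fit chosen after the data were seen.

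**Figure D1:**
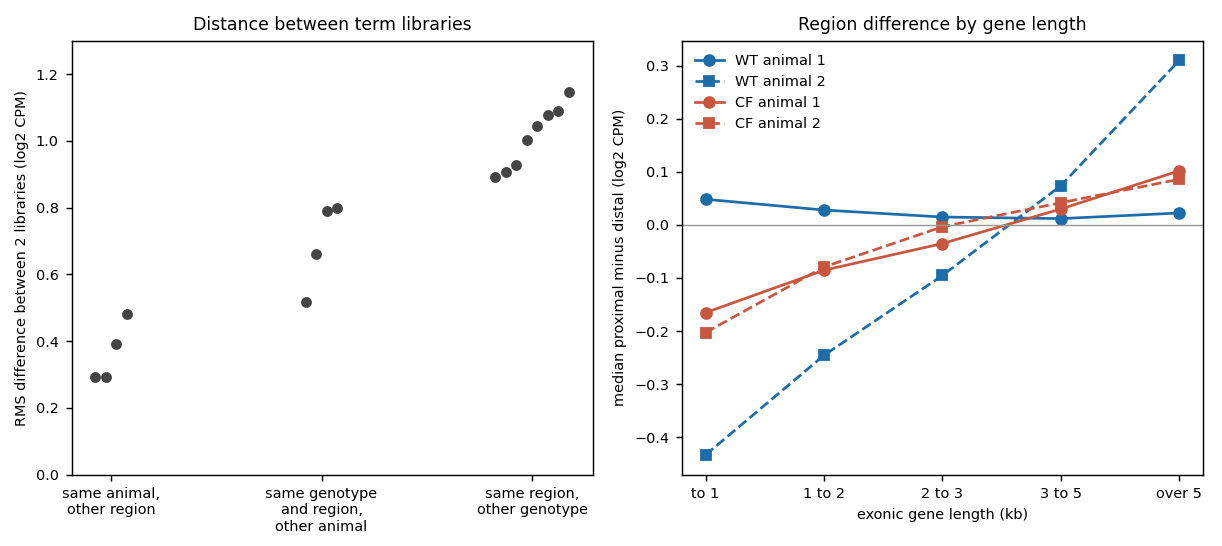
Left, root mean square difference in log2 CPM between 2 term libraries, 1 point per pair of libraries, for the 2 regions of 1 animal (0.292 to 0.482), for 2 animals of 1 genotype and region, and for 2 genotypes in 1 region. Right, median proximal minus distal difference (log2 CPM) by exonic gene length in kilobases for each animal: the line of WT animal 1 is flat and that of WT animal 2 climbs from -0.43 to 0.31.

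Few genes separated the regions across all 4 animals. With each animal as its own control, 4 of 18374 genes (0.0218%) passed an adjusted p of 0.05 in edgeR's quasi-likelihood test, 1 of them higher in proximal and 3 higher in distal lung, and 2279 genes had an unadjusted p under 0.05. DESeq2 with the same design called 256 of 17661 genes (1.45%), 59 higher in proximal and 197 in distal lung, and the edgeR genes were all among them. The other genes named in the text that DESeq2 called are BPIFA1, SFTPA1, MIF, A2M, STMN2, TEKT4, CCNO, FCGBP, TP63, CAV1, CLIC5, COL2A1, MATN4, ITGA8, ANGPT1, MFAP2, MAL, SOX2, ELF3, WNT7B, HOXB7, HOXB8 and FXYD3. Leaving out WT animal 1, WT animal 2, CF animal 1 or CF animal 2 gave 30, 1, 8 and 5 calls, and removing the slope on gene length left 0. No gene passed the limits the study used for its own comparisons (adjusted p of 0.001 or less and at least 1.5-fold). The gene higher in proximal lung was TWIST1, which encodes a transcription factor of mesenchyme. The genes higher in distal lung were KRT15, a keratin of airway basal cells, HOXA7, a homeobox gene, and CCL26, which encodes a chemokine that draws eosinophils. As a second count that needs no model of spread, 1969 genes (10.7%) were higher in proximal lung in all 4 animals and 1858 (10.1%) were higher in distal lung in all 4. These shares are the background for the gene groups that follow.

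Markers of the conducting airway were more often higher in the libraries labelled distal than in those labelled proximal, so the labels are used here as names of the sampled regions only. The genes higher in distal lung in all 4 animals were 8 of 27 (29.6%) of the basal, 8 of 27 (29.6%) of the secretory, 5 of 15 (33.3%) of the gland, 5 of 40 (12.5%) of the ciliated and 2 of 16 (12.5%) of the neuroendocrine list, against 10.1% of all genes. In the same order of lists, those higher in proximal lung in all 4 were 1, 1, 0, 1 and 1. TWIST1 and HOXA7 kept 1 direction at term and at the ages before it, with 1 exception, as described further on. They were not alone, since SFTPB, a surfactant gene of type 2 cells, was higher in proximal lung in 18 of the 19 animals of all ages. Whether the labels were exchanged at term, or the tissue was cut differently, was not tested, and the sign of every difference given here rests on the labels as they stand. KRT15, TP63, SCGB3A2, AGR2, FCGBP and LTF, all known from airway epithelium or its glands, were higher in distal lung in each of the 4 animals, and SFTPA1, known from type 2 cells, was higher in proximal lung in each. Of these, KRT15 passed the test over all genes. SCGB1A1 of club cells, KRT5 and FOXJ1 did not have 1 direction in all 4 animals, and LYZ of glands was higher in proximal lung in WT.

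KRT15 (chr11:41155381-41160459, minus strand) had 3.32 and 6.98 CPM in proximal and 9.58 and 68.2 CPM in distal lung of WT animals 1 and 2, and 1.70 and 14.1 CPM in proximal and 6.51 and 244 CPM in distal lung of CF animals 1 and 2. It was higher in distal lung in all 4 animals, by 2.88-, 9.77-, 3.81- and 17.3-fold (log2 fold change -2.76 ± 0.36, edgeR adjusted p = 0.0453). The levels of the 2 regions overlapped between animals, because both regions of each animal 2 lay high. Without WT replicate 2 the log2 fold change of KRT15 was -2.57 with an adjusted p of 0.5801, and with the slope on gene length removed it was -2.73 with an adjusted p of 0.0829. TP63, the transcription factor that defines basal cells (chr1:195514420-195783654), had 0.565 and 1.63 CPM in proximal and 1.48 and 3.16 CPM in distal lung of WT animals 1 and 2, and 0.102 and 1.13 CPM in proximal and 0.202 and 6.94 CPM in distal lung of CF animals 1 and 2. Its proximal minus distal differences were -1.39, -0.95, -0.96 and -2.62 in log2 CPM, all towards distal lung, and it did not pass the test (log2 fold change -1.55 ± 0.31, edgeR adjusted p = 0.176). KRT5, the other defining keratin of basal cells, differed by -1.32 ± 0.45 with CF animal 1 alone higher in proximal lung. Over the basal cell list, 23 of 27 tested genes had a negative fold change, 8 of 27 (29.6%) were higher in distal lung in all 4 animals against 10.1% of all genes, 1 passed the edgeR test and 4 passed DESeq2, where 1.45% of all genes did. The median of the list was -0.38 against 0.00 over all genes.

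Among secretory cell genes the largest steps lay in the animals numbered 2, towards distal lung. SCGB3A2, a secretoglobin of small airways (chr5:56499964-56503442), had 209.8 and 172 CPM in proximal and 428 and 3021 CPM in distal lung of WT animals 1 and 2, and 171 and 286 CPM in proximal and 359.6 and 2290 CPM in distal lung of CF animals 1 and 2. In both genotypes the distal library of animal 2 stood 17.5-fold (WT) and 7.997-fold (CF) above the proximal one, while the step in each animal 1 was 2.04-fold (WT) and 2.10-fold (CF). The proximal and distal values did not overlap between animals of WT or of CF, and the test across all genes was not passed (log2 fold change -2.28 ± 0.46, edgeR adjusted p = 0.176). FCGBP, a mucus protein, had differences of -0.73, -1.55, -0.48 and -1.58 in log2 CPM (log2 fold change -1.09 ± 0.18, edgeR adjusted p = 0.133). All 4 animals were higher in distal lung and each animal 2 had the larger step. AGR2, which is needed to fold mucins, had differences of -1.07, -2.09, -0.64 and -3.14 (log2 fold change -1.75 ± 0.32, edgeR adjusted p = 0.139). It had the same order of animals within each genotype. BPIFA1, a secreted defence protein of airway epithelium, had 0.734 and 2.79 CPM in proximal and 2.08 and 53.8 CPM in distal lung of WT animals 1 and 2, and 0 and 0 CPM in proximal and 0.0550 and 0.547 CPM in distal lung of CF animals 1 and 2. Its CF libraries held few reads, with 6 and 56 counts in distal lung and 0 in proximal lung. SCGB1A1, the defining gene of club cells, had no common direction, with differences of 0.69, -0.15, -0.02 and 0.38 (log2 fold change 0.22 ± 0.14, edgeR adjusted p = 0.520). Of the secretory list, 8 of 27 (29.6%) were higher in distal and 1 of 27 (3.70%) higher in proximal lung in all 4 animals, none passed the edgeR test, 3 passed DESeq2 towards distal and 0 towards proximal lung, and the median was -0.27. With the slope on gene length removed the median was -0.17.

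Some genes of submucosal glands, which lie in the walls of large airways, were higher in distal lung in all 4 animals, but none of the gland list passed the edgeR test over the 4 animals, and LYZ had the other order in WT. LTF, encoding the iron-binding protein lactoferrin (chr19:52886946-52916930), had 7.88 and 20.8 CPM in proximal and 18.1 and 187 CPM in distal lung of WT animals 1 and 2, and 1.16 and 8.50 CPM in proximal and 1.51 and 20.9 CPM in distal lung of CF animals 1 and 2. Every animal had more of it in distal lung (log2 fold change -1.58 ± 0.34, edgeR adjusted p = 0.191). DMBT1, a scavenger receptor protein of mucosal fluids, named from its RefSeq gene identifier, had 105 and 268 CPM in proximal and 152 and 983 CPM in distal lung of WT animals 1 and 2, and 2.91 and 5.41 CPM in proximal and 12.3 and 115 CPM in distal lung of CF animals 1 and 2, with differences of -0.54, -1.88, -2.08 and -4.40 in log2 CPM. LYZ, which encodes the antibacterial enzyme lysozyme, had 21.3 and 123 CPM in proximal and 14.02 and 36.2 CPM in distal lung of WT animals 1 and 2, and 2.09 and 7.83 CPM in proximal and 2.72 and 10.8 CPM in distal lung of CF animals 1 and 2. It was higher in proximal lung in both WT animals and in distal lung in both CF animals (log2 fold change 0.41 ± 0.30, edgeR adjusted p = 0.567). It passed in WT (log2 fold change 1.19 ± 0.22 (SE, n = 2 animals), edgeR adjusted p = 0.0383) but not in CF (-0.43 ± 0.23, edgeR adjusted p = 0.948), the difference between genotypes did not pass (edgeR adjusted p = 0.200), and with the slope on gene length removed the WT value was 1.34 with an adjusted p of 0.0876. LPO, which encodes lactoperoxidase, differed by -0.96 ± 0.23 and was almost level in CF animal 1, where its difference was -0.01. The median of the gland list was -0.35 and 5 of 15 (33.3%) of its tested genes were higher in distal lung in all 4 animals. Of the list, DESeq2 called 1 of 15 towards distal and 0 towards proximal lung. The per-animal medians were -0.19, -0.85, -0.01 and -0.94 for WT animals 1 and 2 and CF animals 1 and 2.

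Ciliated cells and neuroendocrine cells completed the airway epithelium. FOXJ1, the transcription factor of motile cilia, had 42.2 and 98.9 CPM in proximal and 53.2 and 134 CPM in distal lung of WT animals 1 and 2, and 41.7 and 91.5 CPM in proximal and 37.9 and 126 CPM in distal lung of CF animals 1 and 2. It lay higher in animal 2 of each genotype in both regions, and the step between regions was small beside that (log2 fold change -0.28 ± 0.12, edgeR adjusted p = 0.378). TEKT4 and CCNO, a tektin of the axoneme and a cyclin-like gene of multiciliated cells, were higher in distal lung in all 4 animals, with log2 fold changes of -0.76 ± 0.18 and -0.55 ± 0.15 that did not pass in edgeR. The ciliated list had a median of -0.12 and 5 of 40 (12.5%) of its genes higher in distal lung in all 4, close to the background of 10.1%. The neuroendocrine list had a median of -0.54, with 2 of 16 (12.5%) higher in distal lung in all 4. Its per-animal medians were 0.09, -0.85, -0.24 and -0.32 in WT animals 1 and 2 and CF animals 1 and 2, so WT animal 1 went the other way, and the fitted median ran from -0.71 to -0.31 over the other settings. CALCA, a peptide hormone gene of these cells, was at most 0.161 CPM in all 8 libraries. In bulk tissue, more cells of a type and more RNA per cell cannot be told apart, here and below.

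**Figure D2:**
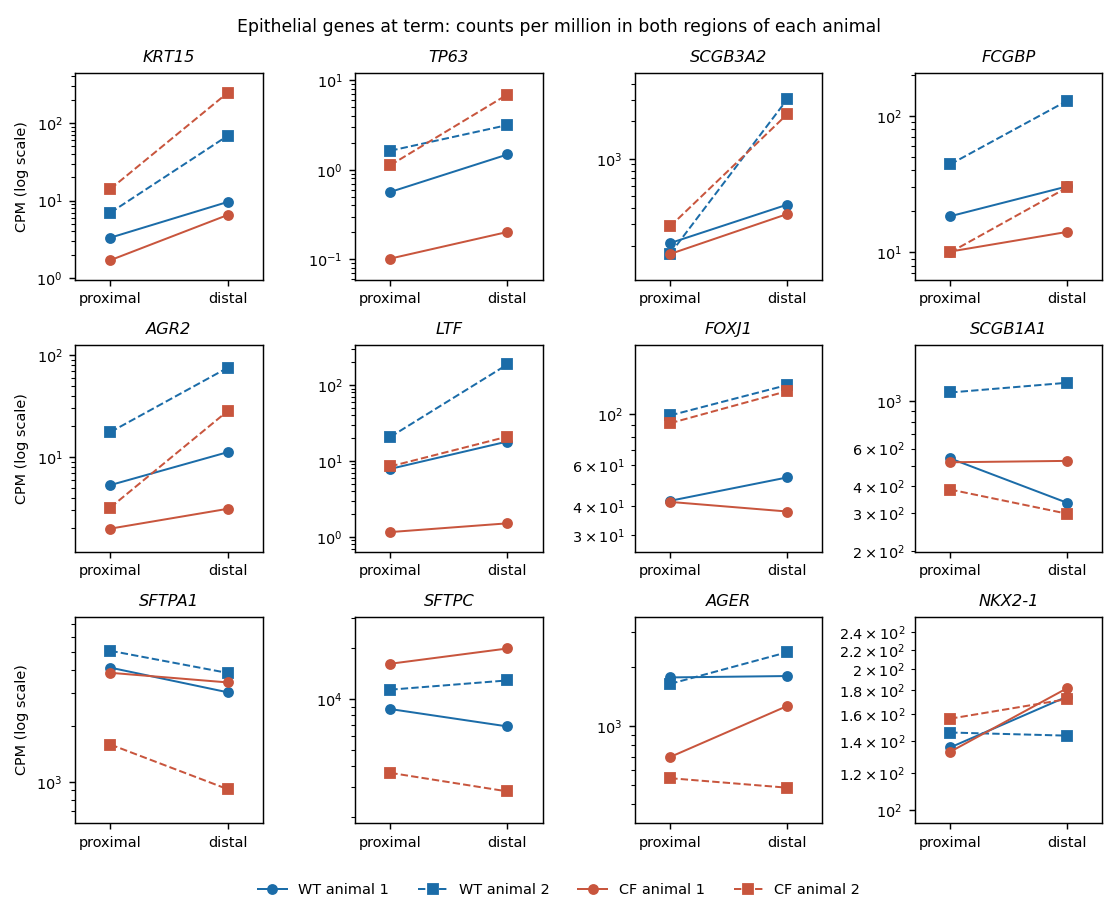
CPM on a log scale for 12 epithelial genes, with a line joining the proximal and distal library of each animal (blue WT, red CF, circles animal 1, squares animal 2). In KRT15, TP63, SCGB3A2, FCGBP, AGR2 and LTF the distal end of all 4 lines is the higher one, with the longest steps for SCGB3A2 in WT animal 2 (17.5-fold) and KRT15 in CF animal 2 (17.3-fold). In SFTPA1 the proximal end is the higher one in all 4, and SFTPC lines go either way.

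Alveolar genes differed little between the regions. SFTPC, a surfactant protein of type 2 cells (chr2:43230598-43233947, minus strand), had 8695 and 11323 CPM in proximal and 6862 and 12847 CPM in distal lung of WT animals 1 and 2, and 16119 and 3646 CPM in proximal and 19849 and 2831 CPM in distal lung of CF animals 1 and 2. It was higher in proximal lung in 2 animals and in distal lung in the other two (log2 fold change 0.06 ± 0.16, edgeR adjusted p = 0.910). SFTPA1 was higher in proximal lung in all 4 animals, with differences of 0.44, 0.39, 0.17 and 0.79 in log2 CPM, and did not pass in edgeR (log2 fold change 0.45 ± 0.14, edgeR adjusted p = 0.288). SFTPB differed by 0.26 ± 0.13 and SFTPD by 0.12 ± 0.12. NAPSA, a protease that processes surfactant protein B, and ETV5, a transcription factor of type 2 cells, were higher in proximal lung in all 4 animals, with log2 fold changes of 0.36 ± 0.11 and 0.39 ± 0.11 that did not pass. NAPSA was named after its values were seen. SFTPB was higher in proximal lung in 15 of the 15 animals sampled before term and in 18 of all 19. NAPSA, SFTPA1 and SFTPD were higher there in 17, 16 and 15 of the 19, and SFTPC and ETV5 in 12 and 11. These counts over ages have no test. Of the type 2 list, 25 of 32 genes had a positive fold change, 5 of 32 (15.6%) were higher in proximal lung in all 4 animals against 10.7% of all genes, none passed in edgeR, 1 passed DESeq2 towards proximal and 0 towards distal lung, and the median was 0.16, with per-animal medians of 0.13, 0.14, -0.06 and 0.37. The summed level of the list was 12983 to 29099 CPM in the proximal and 9464 to 33168 CPM in the distal libraries, ranges that overlap for most of their length.

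Type 1 cell genes did not move together. AGER had 1767 and 1639 CPM in proximal and 1796 and 2373 CPM in distal lung of WT animals 1 and 2, and 697 and 544 CPM in proximal and 1266 and 487 CPM in distal lung of CF animals 1 and 2, a difference of -0.31 ± 0.17 on the log2 scale. CAV1, the coat protein of caveolae, and CLIC5, a chloride channel family protein, were higher in proximal lung in all 4 animals, with log2 fold changes of 0.37 ± 0.10 and 0.54 ± 0.14 that did not pass in edgeR, and both are also expressed by capillary endothelium. The type 1 list had a median of -0.08. In all 4 animals 2 of 34 (5.88%) were higher in proximal and 0 of 34 (0%) higher in distal lung, against 10.7% and 10.1% of all genes. The general capillary and aerocyte lists, which hold genes of the endothelium of the gas exchange surface, had medians of 0.05 and 0.04.

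Genes of cartilage and smooth muscle, tissues of large airway walls, had medians near 0. COL2A1, the main collagen of cartilage, had 0.470 and 0.530 CPM in proximal and 1.21 and 0.787 CPM in distal lung of WT animals 1 and 2, and 0.373 and 0.135 CPM in proximal and 1.72 and 0.625 CPM in distal lung of CF animals 1 and 2. It was below 2 CPM in every library and higher in distal lung in all 4 animals (log2 fold change -1.55 ± 0.36, edgeR adjusted p = 0.208). ACAN, the cartilage proteoglycan aggrecan, differed by 0.08 ± 0.13. MATN4, an extracellular matrix matrilin, had 69.7 and 59.1 CPM in proximal and 138 and 90.7 CPM in distal lung of WT animals 1 and 2, and 104 and 66.8 CPM in proximal and 164 and 83.8 CPM in distal lung of CF animals 1 and 2, and every animal was higher in distal lung (log2 fold change -0.65 ± 0.11, edgeR adjusted p = 0.133). The cartilage list had a median of -0.08 and a summed level of 515 to 672 CPM in proximal and 504 to 694 CPM in distal lung, and DESeq2 called 3 of 28 towards distal and 0 towards proximal lung, against 1.45% of all genes in either direction. Smooth muscle genes had a median of -0.01, or -0.05 with the slope on gene length removed. In all 4 animals 8 of 32 (25%) were higher in proximal and 4 of 32 (12.5%) higher in distal lung, against 10.7% and 10.1% of all genes. ACTA2, MYH11 and DES, which were not among the 8, differed by -0.18 ± 0.17, 0.11 ± 0.10 and -0.17 ± 0.11.

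Genes of alveolar fibroblasts were more often higher in proximal lung. ITGA8, an integrin of alveolar and smooth muscle mesenchyme, had 143 and 96.8 CPM in proximal and 119 and 76.0 CPM in distal lung of WT animals 1 and 2, and 218 and 190.3 CPM in proximal and 152 and 136 CPM in distal lung of CF animals 1 and 2. All 4 animals had more of it in proximal lung, without passing in edgeR (log2 fold change 0.41 ± 0.10, edgeR adjusted p = 0.208). ANGPT1, a ligand of the endothelial receptor TIE2, was also higher in proximal lung in all 4 and did not pass in edgeR, with differences of 0.41, 0.59, 0.61 and 0.25 in log2 CPM (log2 fold change 0.47 ± 0.10, edgeR adjusted p = 0.191). Over the alveolar fibroblast list, 9 of 29 (31.03%) of genes were higher in proximal lung in all 4 animals against 10.7% of all genes, 4 passed DESeq2, and the median was 0.13. The per-animal medians were 0.08, 0.03, -0.02 and 0.34 in WT animals 1 and 2 and CF animals 1 and 2, so CF animal 2 had the highest, and the fitted median ran from 0.0475 to 0.194 over the other settings. Of pericyte genes 5 of 18 (27.8%) were higher in proximal lung in all 4. Elastic fibre genes had a median of -0.16, with -0.28 in WT and 0.08 in CF. Their per-animal medians were -0.39, -0.43, -0.13 and 0.25 in WT animals 1 and 2 and CF animals 1 and 2, so CF animal 2 alone was positive. MFAP2, a microfibril protein, was higher in distal lung in all 4 animals (-0.45 ± 0.12), and ELN, which encodes elastin, in both WT animals and CF animal 1 (log2 fold change -0.43 ± 0.17, edgeR adjusted p = 0.368).

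**Figure D3:**
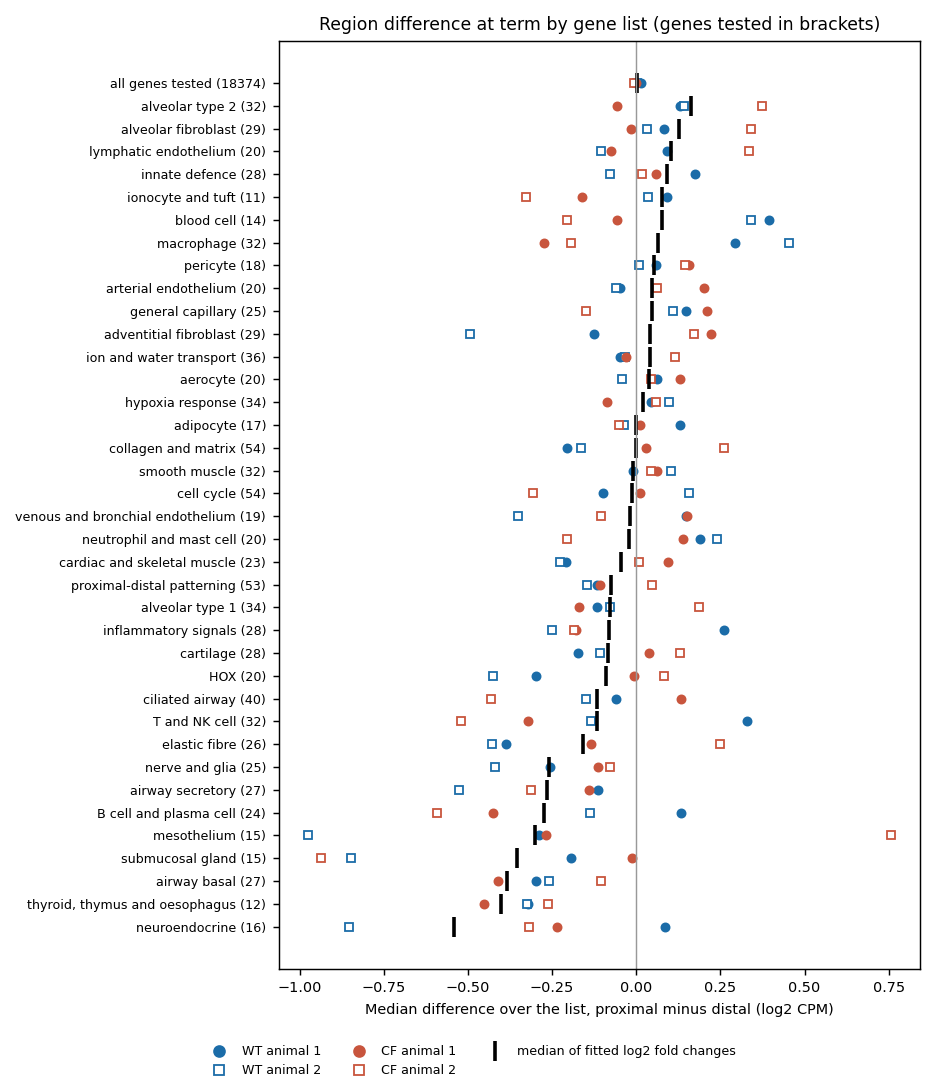
Median proximal minus distal difference (log2 CPM) over each of 37 gene lists and over all genes tested, for each animal (circles animal 1, squares animal 2, blue WT, red CF), with black bars for the median of the fitted log2 fold changes. The airway basal, gland and secretory lists lie left of 0 (-0.38, -0.35 and -0.27), the type 2 list lies right of it (0.16), and the mesothelium list spreads from -0.98 in WT animal 2 to 0.76 in CF animal 2.

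TWIST1 and HOXA7, genes of transcription factors that mesenchyme expresses, separated the regions in every animal at term. TWIST1 (chr4:27835337-27851867, minus strand) had 3.37 and 1.98 CPM in proximal and 1.41 and 0.673 CPM in distal lung of WT animals 1 and 2, and 6.78 and 6.26 CPM in proximal and 1.82 and 1.41 CPM in distal lung of CF animals 1 and 2. It was higher in proximal lung in all 4 animals, by 2.39-, 2.94-, 3.73- and 4.44-fold (log2 fold change 1.72 ± 0.21, edgeR adjusted p = 0.0453). Every proximal library lay above every distal library. The gene model counted here has 16007 exonic bases, so its counts may include sequence beyond the coding transcript. HOXA7 (chr4:68845166-68861962, plus strand, named from its RefSeq gene identifier) had 5.43 and 2.24 CPM in proximal and 13.2 and 5.95 CPM in distal lung of WT animals 1 and 2, and 4.04 and 5.70 CPM in proximal and 13.2 and 11.02 CPM in distal lung of CF animals 1 and 2. All 4 animals had more HOXA7 in distal lung (log2 fold change -1.34 ± 0.16, edgeR adjusted p = 0.0453), and every distal library was above every proximal one. Its annotated span overlaps those of HOXA9 and HOXA3, and without a stated strand setting reads in shared sequence cannot be assigned to 1 of them. With the slope on gene length removed, the log2 fold changes were 1.56 for TWIST1 (adjusted p = 0.0829) and -1.37 for HOXA7 (adjusted p = 0.0662), so neither call held and the sizes moved by less than their SE. Without WT animal 2, the adjusted p of both was 0.259, and without CF animal 1 it was 0.0540 for both. Without CF animal 2, that of TWIST1 was 0.0877.

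The direction of both genes was then examined in the other 15 animals of the series, sampled at 65, 80, 100 and 120 days, which had no part in the term test. They gave 16 pairs of libraries, since both WT pairs at 100 days carried 1 animal label and were averaged. One further label stood on pairs of different genotype and age, which were counted as separate animals. This test was chosen after the data were seen. HOXA7 was higher in distal lung in 15 of 15, with a mean difference of -1.76 ± 1.31 (SD) in log2 CPM (exact sign-flip permutation test, two-sided, p = 6.10e-05, the smallest it can give, and 2.44e-04 adjusted over the 4 genes called at term). TWIST1 was higher in proximal lung in 14 of 15, with a mean of 1.79 ± 1.52 (SD) in log2 CPM (exact permutation p = 1.83e-04, adjusted 3.66e-04). The only exception was WT animal 1 at 65 days, at -0.43. These p-values count each animal as independent, but the 8 earlier CF animals are clones of the same line, and 4 pairs of animals of 1 genotype and age carry labels that differ in their last digit alone, with no statement of whether they share a pregnancy. With each such pair averaged (11 units) the exact permutation p adjusted over the 4 genes was 0.00391 for both genes. With all CF clones averaged into 1 unit as well (6 units), HOXA7 was higher in distal lung in 6 (exact permutation p = 0.0312, the smallest it can give) and TWIST1 in proximal lung in 5 (p = 0.0625), and neither passed after adjustment (adjusted p = 0.125 for both). KRT15 and CCL26 had no such common direction before term. KRT15 was higher in distal lung in 6 of the 15 earlier animals, with a mean of 1.46 ± 3.04 (SD) in log2 CPM (exact permutation, adjusted p = 0.0975), and ran from -2.86 to 6.89. CCL26, named although it lies below the level the naming rule asks for, was higher in distal lung in 4, with a mean of 1.33 ± 2.88 (SD) in log2 CPM (exact permutation, adjusted p = 0.0975). CCL26 was a low gene even at term, at 0.0716 to 1.87 CPM, and with the slope on gene length removed its log2 fold change was -2.64 with an adjusted p of 0.0829. Its adjusted p at term was 0.362 without WT animal 2, 0.0546 without CF animal 1 and 0.0919 without CF animal 2, so the call was lost in each.

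Of the 20 HOX genes tested, 5 of 20 (25%) were higher in distal lung in all 4 animals against 10.1% of all genes, none was higher in proximal lung in all 4, and the median log2 fold change was -0.09. The median was -0.39 in WT and 0.08 in CF, and with the slope on gene length removed it was -0.02 over the 4 animals. The 5 genes higher in distal lung in all 4 lay in the HOXA and HOXB clusters and had paralogue numbers 6 to 9. The 11 with paralogue numbers 1 to 5 had a median log2 fold change of 0.12, ran from -0.17 to 0.68, and none was on the same side in all 4 animals, although HOXA5, HOXB2, HOXB5, HOXC4, HOXC5 and HOXD3 were higher in distal lung in both WT animals. The 9 with paralogue numbers 6 to 9 had a median of -0.51, 8 of them were negative, and 5 were higher in distal lung in all 4 animals, namely HOXA7, HOXA9, HOXB6, HOXB7 and HOXB8. HOXB9, HOXC6, HOXD8 and HOXD9 were split between animals. HOXB7 (chr11:37381261-37384718) had 3.16 and 2.61 CPM in proximal and 4.81 and 6.24 CPM in distal lung of WT animals 1 and 2, and 4.30 and 3.49 CPM in proximal and 9.02 and 6.28 CPM in distal lung of CF animals 1 and 2, a difference of -0.95 ± 0.17 (edgeR adjusted p = 0.133). HOXB8 had differences of -1.03, -1.97, -1.74 and -0.61 in log2 CPM (log2 fold change -1.32 ± 0.30, edgeR adjusted p = 0.201), HOXB6 of -0.31, -1.02, -0.30 and -0.42 and HOXA9 of -0.87, -1.31, -1.49 and -3.06, none past the edgeR test, and HOXB6 and HOXA9 were named after their values were seen. HOXA9 was scarce, at 0.0770 to 0.674 CPM. In the 15 earlier animals HOXA9, HOXB7, HOXB8 and HOXB6 were higher in distal lung in 14, 11, 9 and 9. The split by paralogue number was made after the values were seen and has no test.

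**Figure D4:**
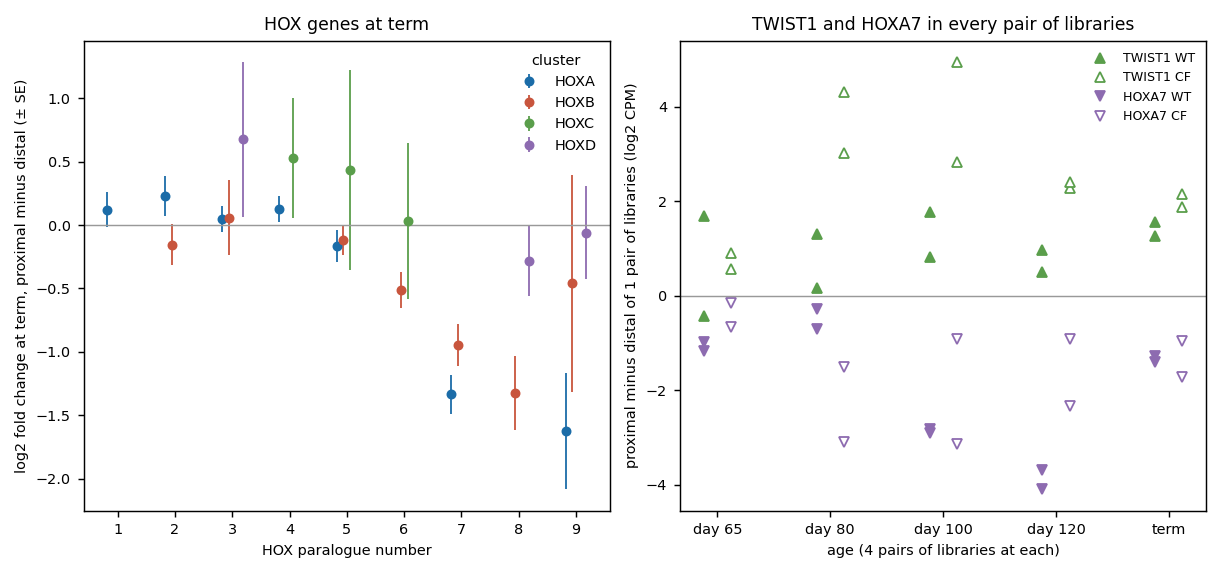
Left, log2 fold change at term (proximal minus distal, bars ± SE) of the 20 HOX genes tested by paralogue number, coloured by cluster: genes 1 to 5 lie about 0, and of genes 6 to 9 those of clusters A and B lie below it while HOXC6 and HOXD9 lie near 0. Right, proximal minus distal difference (log2 CPM) of TWIST1 and HOXA7 in each of the 20 pairs of libraries, from 19 animals, by age, filled for WT and open for CF: HOXA7 is below 0 in all 20 pairs and TWIST1 above 0 in 19.

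SOX2 and SOX9, which mark airway and tip epithelium in the embryo, had the same direction at term. SOX2 had 13.7 and 20.2 CPM in proximal and 19.6 and 23.03 CPM in distal lung of WT animals 1 and 2, and 5.17 and 10.03 CPM in proximal and 7.06 and 15.4 CPM in distal lung of CF animals 1 and 2. Distal lung had more of it in all 4 animals, without passing in edgeR (log2 fold change -0.44 ± 0.12, edgeR adjusted p = 0.254). SOX9 had differences of -0.38, -0.10, -0.30 and -0.50 in log2 CPM, also all towards distal lung (log2 fold change -0.32 ± 0.13, edgeR adjusted p = 0.365). NKX2-1, the transcription factor of all lung epithelium, was at 133 to 182 CPM in all 8 libraries and differed by -0.23 ± 0.11. WNT7B, an epithelial WNT ligand, and ELF3, an epithelial transcription factor, were higher in distal lung in all 4 animals, with log2 fold changes of -0.73 ± 0.18 and -0.45 ± 0.11 that did not pass in edgeR. Of the proximal-distal patterning list, 13 of 53 (24.5%) were higher in distal and 4 of 53 (7.55%) in proximal lung in all 4 animals, against 10.1% and 10.7% of all genes. TP63, a member, also counts in the basal list. A2M (alpha-2-macroglobulin, a protease inhibitor, chosen after its values were seen) was higher in distal lung in all 4 animals at term (log2 fold change -0.89 ± 0.13, edgeR adjusted p = 0.122) and in 13 of the 15 earlier animals.

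Within the genotypes, 48 genes (0.261%) separated the regions in WT and 18 (0.0980%) in CF, with 2 animals each and the spread estimated over both. In WT 44 of them were higher in distal lung, and in CF 15. The lists shared 2 genes, KRT15 and HOXA7. Genes under 2000 exonic bases made up 68.8% of the WT calls and 27.8% of the CF calls against 32.8% of all genes, and with the slope on gene length removed 14 WT and 3 CF genes passed, all among those called before. Leaving out single animals gave 31 (without WT animal 2) to 867 (without WT animal 1) calls in WT and 28 (without CF animal 2) to 158 (without CF animal 1) in CF. A direct test of the difference between genotypes called 2 of 18374 genes (0.0109%), PRG4 and PI16. Of the named genes called in WT, PRG4, MSLN, PI16, BNC1, DLK1 and MIF still passed with the slope removed, with adjusted p from 0.00361 to 0.0447, and KRT15, HOXA7, CCL26, LTF, BPIFA1, LYZ, UPK1B, UPK3B and LUM did not, with adjusted p from 0.0544 to 0.0905. Of the named genes called in CF, DCXR and STMN2 still passed (adjusted p = 0.0247 for both), and DMBT1, KRT15, HOXA7, A2M, NRG1, TWIST1 and KRT17 did not, with adjusted p from 0.0504 to 0.0923. A gene called in only 1 genotype is otherwise not shown to differ between them.

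Genes of the lung surface were among those that set the regions apart in WT. PRG4, which encodes the lubricating protein lubricin (chr12:65400357-65416683), had 0.807 and 0.487 CPM in proximal and 9.25 and 16.8 CPM in distal lung of the 2 WT animals. Its distal levels in WT were 11.4- and 34.3-fold above the proximal ones (log2 fold change -4.29 ± 0.39, edgeR adjusted p = 2.19e-04). In CF it had 1.35 and 4.18 CPM in proximal and 0.523 and 0.859 CPM in distal lung, the opposite order in both animals (log2 fold change 1.85 ± 0.37, edgeR adjusted p = 0.113). The region effect differed between genotypes by 6.14 ± 0.53 on the log2 scale (edgeR adjusted p = 1.18e-04), and by 6.17 with the slope on gene length removed (adjusted p = 0.00233). In the 15 earlier animals PRG4 was higher in proximal lung in 13, from -0.22 to 4.38 in log2 CPM, so the 2 WT term animals stood outside the range of all others.

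Other genes of mesothelium, the cell layer over the lung surface, were higher in distal lung of WT as well. MSLN, encoding mesothelin (chr24:587185-590499), had 0.382 and 0.566 CPM in proximal and 2.25 and 10.6 CPM in distal lung of WT animals 1 and 2, and 3.44 and 1.87 CPM in proximal and 5.97 and 4.96 CPM in distal lung of CF animals 1 and 2. It was higher in distal lung in all 4 animals and passed in WT (log2 fold change -3.43 ± 0.39, edgeR adjusted p = 0.00207) but not in CF (-1.10 ± 0.34, edgeR adjusted p = 0.510), and the difference between genotypes did not pass (2.33 ± 0.50, edgeR adjusted p = 0.227). UPK3B, a uroplakin that marks mesothelium, had 0.132 and 0.0430 CPM in proximal and 1.08 and 2.11 CPM in distal lung of the WT animals and passed there (-4.16 ± 0.69, edgeR adjusted p = 0.0257). In CF it had 0.153 and 0.549 CPM in proximal and 0.110 and 0.234 CPM in distal lung, the opposite order at low levels. UPK1B, another uroplakin, had 0.0440 and 0.136 CPM in proximal and 1.04 and 3.18 CPM in distal lung of the WT animals and passed there (-4.53 ± 0.84, edgeR adjusted p = 0.0383). In CF it had 0 and 1.56 CPM in proximal and 0.110 and 0.400 CPM in distal lung, higher in distal lung in animal 1 and in proximal lung in animal 2. BNC1, a transcription factor of mesothelium and stratified epithelium, had 0.0587 and 0.115 CPM in proximal and 0.948 and 1.92 CPM in distal lung of WT and 0 and 1.08 CPM in proximal and 0 and 0.137 CPM in distal lung of CF animals, and it was named after its values were seen. WT1, also of mesothelium, differed by -1.08 ± 0.81 in WT and did not pass. The mesothelium list had 5 of 15 tested genes called in WT, against 0.261% of all genes. None was called in CF, where 0.0980% of all genes were, so a count of 0 among 15 genes says nothing about them. The medians were -1.08 in WT and 0.21 in CF. The per-animal medians were -0.29, -0.98, -0.27 and 0.76 in WT animals 1 and 2 and CF animals 1 and 2, so both first animals were alike and the positive CF median came from CF animal 2. How much pleural surface each piece of tissue held is not known from the labels, and its part in these values was not tested.

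**Figure D5:**
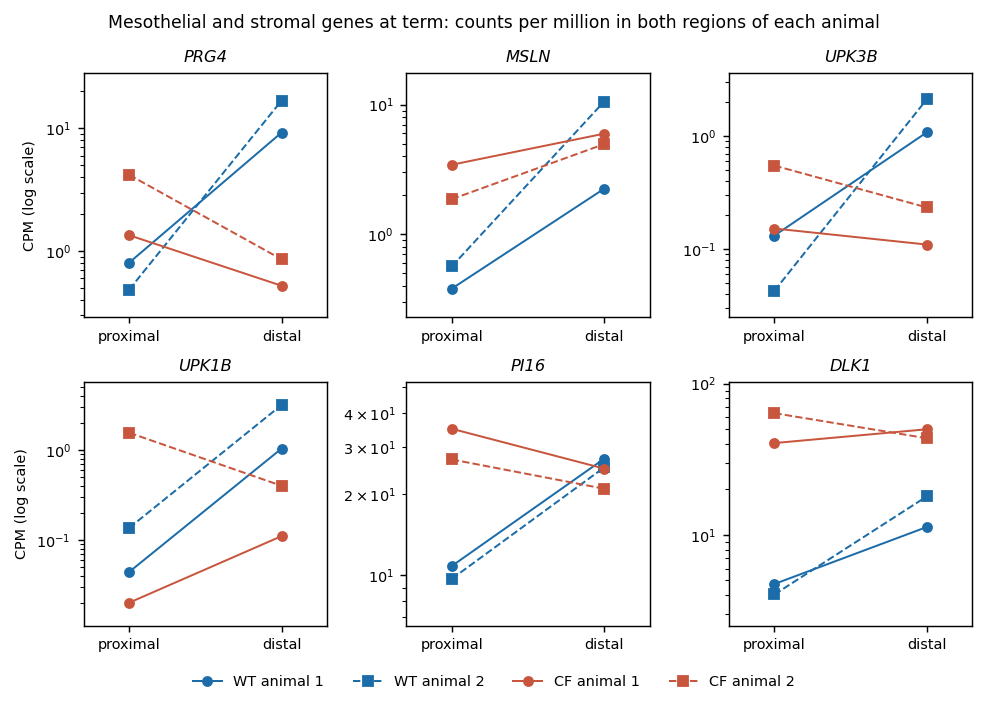
CPM on a log scale in the proximal and distal library of each animal for 6 genes whose region difference was called in WT, with lines joining the regions of 1 animal (0 drawn at 0.02 CPM). In PRG4, UPK3B and PI16 both blue WT lines climb to distal lung and both red CF lines fall, while in MSLN all 4 climb.

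PI16, a marker of adventitial fibroblasts (chr20:10896940-10911145), had 10.8 and 9.71 CPM in proximal and 27.1 and 25.2 CPM in distal lung of the WT and 35.1 and 26.98 CPM in proximal and 24.9 and 21 CPM in distal lung of the CF animals. It was higher in distal lung in both WT and in proximal lung in both CF animals, with no overlap between the regions in either genotype. The region effect was -1.35 ± 0.16, edgeR adjusted p = 0.00326 in WT and 0.43 ± 0.16, edgeR adjusted p = 0.703 in CF, a difference of 1.78 ± 0.23 (edgeR adjusted p = 0.0105). LUM and DLK1, a matrix proteoglycan and a surface protein of immature mesenchyme, passed in WT (log2 fold changes -0.97 and -1.70, both towards distal lung) and stood at 0.24 and 0.12 in CF, but the differences between genotypes did not pass (adjusted p = 0.200 and 0.113). DPT, the matrix protein dermatopontin, was -0.56 in WT and 1.05 in CF, and the difference did not pass either (adjusted p = 0.110). The adventitial fibroblast list had medians of -0.29 in WT and 0.27 in CF, and the collagen and matrix list of -0.18 and 0.22. LTF and BPIFA1 were called in WT (log2 fold changes -2.20 and -2.99), as was MIF, a short cytokine gene (355 exonic bases, -1.45).

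In CF, 2 of 27 basal and 1 of 15 gland genes were called, all towards distal lung, against 0.0980% of all genes, and no secretory or ciliated gene was. DMBT1 had a log2 fold change of -3.28 ± 0.43, edgeR adjusted p = 0.00950. KRT15 had one of -3.11 ± 0.44, edgeR adjusted p = 0.0131, and 0.127 as its adjusted p in DESeq2. KRT17, a keratin of basal cells under stress, had 0.0932 and 0.164 CPM in proximal and 0.422 and 5.81 CPM in distal lung (-3.94 ± 0.60, edgeR adjusted p = 0.0164). Outside the airway lists, DCXR, a carbonyl reductase of the xylulose pathway, had 0.636 and 2.68 CPM in proximal and 2.40 and 18.9 CPM in distal lung (-2.41 ± 0.30, edgeR adjusted p = 0.00927). NRG1, a growth factor that signals through ERBB receptors, had 0.0678 and 0.404 CPM in proximal and 2.06 and 1.90 CPM in distal lung of CF and 2.63 and 4.56 CPM in proximal and 3.03 and 4.27 CPM in distal lung of WT animals. Its proximal libraries in CF were the low ones, and the difference between genotypes did not pass (-3.25 ± 0.63, edgeR adjusted p = 0.199). STMN2, a tubulin-binding protein of neurons, was higher in proximal lung in all 4 animals and passed in CF (1.32 ± 0.19, edgeR adjusted p = 0.0131). DCXR and KRT17, like LUM and MIF, were named after their values were seen.

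No gene of ion and fluid transport, the process that fails in CF, passed the edgeR test between regions, and of the 36 tested DESeq2 called 4 towards distal and 0 towards proximal lung, against 1.45% of all genes in either direction. SCNN1A and SCNN1B, subunits of the epithelial sodium channel, differed by 0.09 ± 0.16 and -0.31 ± 0.13, ANO1, a calcium-activated chloride channel, by 0.06 ± 0.12, and SLC26A9, a chloride transporter, by 0.03 ± 0.13, with adjusted p from 0.377 to 0.932. FXYD3, a regulator of the sodium pump in epithelium, was higher in distal lung in all 4 animals (log2 fold change -1.21 ± 0.23, edgeR adjusted p = 0.139). The list median was 0.04, or -0.04 with the slope on gene length removed. In all 4 animals 4 of 36 (11.1%) of genes were higher in distal lung, against 10.1% of all genes. WFDC2, a protease inhibitor of airway secretions, was higher in distal lung in all 4 animals (-0.33 ± 0.10). TJP1, a tight junction protein, and CHI3L1, a secreted chitinase-like protein, were higher in proximal lung in all 4 (0.19 ± 0.11 and 0.28 ± 0.10). None of these passed in edgeR, nor did C3, KNG1, CXCL8 or MARCO, whose fold changes ran from -0.53 to 0.14.

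Immune cell genes had no common direction over the 4 animals. B cell and plasma cell genes had medians of 0.13, -0.14, -0.43 and -0.59 in WT animals 1 and 2 and CF animals 1 and 2, T and NK cell genes of 0.33, -0.14, -0.32 and -0.52, and macrophage genes of 0.29, 0.45, -0.27 and -0.19. All 3 medians were negative in both CF animals and positive in WT animal 1, and the difference between genotypes was not tested for lists. No gene of these lists passed in either genotype. Cell cycle and hypoxia response genes had medians of -0.01 and 0.02. Genes of nerve and glia had a median of -0.26, with -0.28 in WT and 0.02 in CF. Their per-animal medians were -0.26, -0.42, -0.11 and -0.08 in WT animals 1 and 2 and CF animals 1 and 2, so both CF animals were negative too. Genes of organs near the lung that a proximal cut could hold (thyroid, thymus and oesophagus) had a median of -0.40. Their summed levels were 34.8 to 94.0 CPM in proximal and 56.2 to 126 CPM in distal lung. Most of that level was MAL, which airway epithelium and myelin also express, and thyroglobulin (TG) was at most 0.550 CPM.

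At 120 days the size of the airway list medians rested on 1 animal. The proximal library of CF animal 2 at that age stood apart, with 0.942% of counts from mitochondrial genes against 1.62% to 2.26% in the other day 120 libraries, 85.8% of its low counts even against 73.5% to 78.1%, and 18998 genes detected at 101116915 counts. With this animal the medians at day 120 were 0.70 for secretory, 0.50 for gland, 0.41 for ciliated, 0.00 for basal and 0.01 for neuroendocrine cell genes. Without it they were 0.10, 0.09, -0.09, -0.16 and -0.19, against -0.27, -0.35, -0.12, -0.38 and -0.54 at term. SCGB3A2 differed by 2.27 ± 1.85 at day 120 against -2.28 ± 0.46 at term, but its 4 day 120 animals ran from -1.96 to 6.55 in log2 CPM, and without CF animal 2 the day 120 value was 0.35 ± 1.21. A test of whether the region effect changed between day 120 and term called 0 of 19212 genes (smallest edgeR adjusted p = 0.619, 849 genes at an unadjusted p under 0.05, and 0 calls by DESeq2), and 0 without that animal (710 at an unadjusted p under 0.05). The region effect at day 120 itself passed in 0 genes (838 at an unadjusted p under 0.05), and without CF animal 2 in 2 of 19428, which were HOXA7 and NRCAM, a neuronal adhesion gene. The 4 WT libraries at day 120 held 24670355 to 40601998 counts, fewer than at term. PTN, a heparin-binding growth factor, and TFF2, a trefoil peptide of mucus, were among the genes with the smallest p. They differed by 0.75 and 1.16 at day 120 against -0.12 and 0.00 at term (both adjusted p = 0.619).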

How the data were processed

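Total RNA from dissected lung was sequenced as 100 bp paired ends from oligo-dT primed libraries. Per the labels and the study's methods, the authors aligned reads with STAR to Oar_v4.0 and counted them per gene with featureCounts 1.6.3 from Subread, and they deposited raw counts with gene positions and exonic lengths. The processing notes name STAR 2.6 and the study's methods a later STAR release, and the strand setting of the counting is not given in the sources used here. The members of the comparison and the 37 gene lists were chosen with earlier results of these data known.

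The deposited counts of the 8 term libraries were tested with edgeR 4.0.16 (R 4.3.3; TMM scaling, filterByExpr with a minimum count of 10, quasi-likelihood F-test), with the animal as block, because both regions carried the same animal label. Samples of the same number deviated together within each genotype, as the correlations at the start of the report show. Calls were made at 0.05 after Benjamini-Hochberg adjustment over the tested genes. One further fit gave each genotype its own region effect and their difference, and another compared day 120 with term. CPM values use TMM library sizes, and differences per animal use a prior count of 0.5. DESeq2 1.42.0, other scalings, filters and limits, and leaving out each animal were alternatives, and the code was tested on simulated data. Symbols beginning with LOC were named through RefSeq gene identifiers for 399 of 4158 tested genes. Of 1064 list members, 976 were in the table and 892 were tested. Named genes were the 12 largest called changes per direction among genes whose average log2 CPM reached 1, the first 4 and the 3 smallest p of each list, the genes the study follows, and the 10 smallest p of each interaction. Others are marked as named after their values were seen. Nothing says that samples beyond the animal label were separate. The edgeR p-values at term rest on how the region difference varied between the 4 animals, of which each genotype gave 2. A further deposited table that repeats the CF counts was not used, and no promoter search was made.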

Additional observations from a re-analysis of the deposited data

Results flagged for a closer look

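The region effect differed between genotypes for PRG4, by 6.14 on the log2 scale (CF minus WT), and for PI16, by 1.78, each by the edgeR test of the difference itself. Among 37 lists and 89 genes, single animals stood far from the other 3 in their proximal minus distal difference (log2 CPM) for 2 lists and 3 genes. Chance gives about 1 in 20, so these counts are near those of chance and none is a result on its own. The inflammatory signals list had a median of 0.26 in WT animal 1 against -0.25 to -0.18 in the others. The ion and water transport list had a median of 0.11 in CF animal 2 against -0.05 to -0.03. DES, the muscle filament desmin, was at -0.51 in WT animal 2 against -0.07 to -0.03. UPK1B was at 1.95 in CF animal 2 against -4.79 to -4.44, where the low values rest on few counts. MARCO, a macrophage scavenger receptor, was at 0.35 in WT animal 1 against -0.90 to -0.70. Causes were not tested.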

How the results depend on the processing

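The main counts of calls were 4 for the region, 48 in WT, 18 in CF and 2 for the difference between genotypes, with 2 calls among list genes. At the study's limits they were 0, 1, 0 and 1. Without a low-count filter they were 58, 196, 89 and 49, with 16 list genes. DESeq2 gave 256, 187, 58 and 46, with 42 list genes. With no replicate block, so without the pairing of regions by animal, all of them were 0, as they were with all 40 libraries in the fit. A test against a log2 change of 0.58 gave 0 for the region, and thinning each pair to equal depth gave 4. Fitting only the libraries of 1 genotype gave 232 in WT and 53 in CF. With the trend on gene length removed, an alternative chosen after seeing the data, they were 0, 14, 3 and 2, with 0 list genes. Leaving out each animal gave 1 to 30, 31 to 867, 28 to 158 and 8 to 92, with 0 to 5 list genes. These fits leave 1 animal of a genotype, assumed to vary like the others. The change between day 120 and term gave 0 calls in each setting run for it, leaving out each term animal or CF animal 2 of day 120 included (0 to 0). RLE scaling kept the 4, 48, 18 and 2 called genes and added 12 in WT. At an adjusted p of 0.05, PRG4 and PI16 were called in each fit except those with no replicate block or with all 40 libraries. No value changed direction among the called genes. Causes of these shifts were not tested. Depth was 115937437 counts or more per library, and genes under 1 CPM rest on fewer reads than others and on steps that count both mates.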
